A study of Mus musculus with 11 samples.

Results

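The 9 genes described here, Gpr17, Bcas1, Tns3, Cnksr3, Plxnb3, Sirt2, Enpp6, Itpr2 and 9630013A20Rik, are expressed as a precursor of the oligodendrocyte lineage commits to differentiation and becomes a newly formed, premyelinating oligodendrocyte. They are 9 of the 16228 genes with a row in the deposited expression table. They were chosen by name, with their measured values in the comparisons of each knockout with the controls already known, so those comparisons are given below as description and carry no p. RNA was sequenced from a 4 mm punch of cerebral cortex of mice at postnatal day 30, with 1 library per animal. Prkci cKO animals (4) carried Ng2 Cre+ Prkci f/f, and Prkcz cKO animals (3) carried Ng2-Cre+ Prkcz f/f. The 4 control animals carried a floxed allele of the other kinase only, Pkcz f/+ in replicates 1 and 2 and Pkcz f/f in replicates 3 and 4, with no Cre given in the labels. No control carried Prkci f/f, so Prkci deletion and the mouse line cannot be told apart. Cre is given in the labels of both knockouts only, so Cre itself and deletion cannot be told apart in either comparison with Control. Prkci and Prkcz encode the atypical protein kinases C iota and zeta, which act in cell polarity. The Ng2 promoter drives Cre in oligodendrocyte precursors and in pericytes, whereas the tissue punch holds all cell types of the cortex.

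Oligodendrocyte precursors divide, keep receptors for growth factors and, once they commit, pass through a short premyelinating state before they wrap axons. Genes of that short state are switched on early and many decline again as myelin genes come up, so in whole tissue they can report on cells that are differentiating at the time of sampling. How far the 9 genes did so here was not tested. Within groups their mean had a Pearson r of 0.89 with mature oligodendrocyte genes and 0.45 with other newly formed oligodendrocyte genes. Some of them, Sirt2 among them, stay on in mature oligodendrocytes, and Itpr2 is also known from astrocytes.

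The promoters of Plxnb3, 9630013A20Rik and Itpr2 show what lies at the start of some of the genes compared here. Between animals of a group, Plxnb3 and 9630013A20Rik moved together (Pearson r 0.86). Itpr2 had an r of 0.39 with Plxnb3 and 0.05 with 9630013A20Rik. These promoters were picked from those of 7 genes, and whether motif content goes with such co-variation was not tested. Each sequence is RefSeq's, on build GRCm38.p6, 300 bases long, with 250 bases before the gene's start and 50 after it, written along the gene's own strand. Capitals mark the short Sox-type motifs ACAAAG and ACAAT on either strand; the letters ACAA are common to both motifs. The Plxnb3 promoter is chrX:73756853-73757152 (plus strand), the 9630013A20Rik promoter chr14:84476375-84476674 (minus strand) and the Itpr2 promoter chr6:146502174-146502473 (minus strand).
Plxnb3: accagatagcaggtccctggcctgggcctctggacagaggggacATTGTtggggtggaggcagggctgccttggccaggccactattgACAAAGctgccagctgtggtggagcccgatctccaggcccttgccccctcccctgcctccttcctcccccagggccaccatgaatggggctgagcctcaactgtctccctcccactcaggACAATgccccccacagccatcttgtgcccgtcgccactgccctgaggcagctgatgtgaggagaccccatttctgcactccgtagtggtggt
9630013A20Rik: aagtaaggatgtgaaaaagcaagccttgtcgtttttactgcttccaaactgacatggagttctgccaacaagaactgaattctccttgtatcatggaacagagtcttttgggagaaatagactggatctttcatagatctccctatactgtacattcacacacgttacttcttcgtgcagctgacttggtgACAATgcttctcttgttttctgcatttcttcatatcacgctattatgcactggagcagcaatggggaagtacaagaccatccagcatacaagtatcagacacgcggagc
Itpr2: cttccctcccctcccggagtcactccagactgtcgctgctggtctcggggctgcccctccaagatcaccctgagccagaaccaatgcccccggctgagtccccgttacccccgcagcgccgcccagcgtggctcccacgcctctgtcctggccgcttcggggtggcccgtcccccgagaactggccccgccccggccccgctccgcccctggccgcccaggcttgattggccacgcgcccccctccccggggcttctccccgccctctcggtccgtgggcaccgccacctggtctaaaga
The table held promoters of 7 of the 9 genes. ACAAT was in 5 of the 7 (Plxnb3, 9630013A20Rik, Sirt2, Enpp6 and Tns3) and in 31.0% of all 32851 promoters of this length. ACAAAG was in 2 of the 7 (Cnksr3 and Plxnb3) and in 18.7% of all promoters. The E-box CANNTG was in 5 of the 7 and in 72.3% of all promoters. CTGGCAC, of the kind bound by Myrf, was in 0 of the 7 and in 5.0% of all promoters. CTTTGA, of the kind bound by Tcf7l2, was in 0 of the 7 and in 16.0% of all promoters. The second Myrf-type motif, CTGGTAC, was in 0 of the 7 and in 2.2% of all promoters. Both strands were searched for each motif. The Itpr2 window held neither Sox-type motif and had a GC content of 73.3%, against a median of 52.7% over all promoters.

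Depth differed between libraries. The size of the smallest steps between low values put the depth at about 14700000 reads for Prkcz cKO replicate 3, the shallowest library, while the other 10 had 20600000 to 28200000. Prkci signal was 67.0 ± 1.47 in Prkci cKO, 86.1 ± 4.79 in Prkcz cKO and 87.8 ± 2.52 in Control (SD), and every Prkci cKO library was below every other library. Prkcz signal was 278 ± 15.1 in Prkcz cKO, 314 ± 6.93 in Prkci cKO and 323 ± 20.2 in Control. These values count the whole gene, not the deleted exons, in a tissue where most cells are not of the Ng2 lineage. Summed neuron markers ranged from 8960 to 9670 in Prkci cKO, from 9310 to 9670 in Prkcz cKO and from 8980 to 9190 in Control.

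Gpr17 (chr18:31942997-31949636, minus strand, GRCm38), an orphan receptor related to purinergic and cysteinyl-leukotriene receptors that marks committed precursors, was lower in both knockouts. Its normalised signal was 82.3, 89.53, 78.65 and 97.39 in the Prkci cKO libraries, 80.23, 78.43 and 72.07 in the Prkcz cKO libraries, and 128.55, 137.46, 128.84 and 130.27 in the Control libraries. All 7 knockout libraries lay below all 4 controls, and the controls were close to one another, with a coefficient of variation of 3.19%. The mean was 66.2% of the control mean in Prkci cKO and 58.6% in Prkcz cKO. On the log2(signal + 0.5) scale used for every log2 difference here, Gpr17 differed by -0.60 (SE 0.063) in Prkci cKO and by -0.77 (SE 0.068) in Prkcz cKO. Its exons overlap those of Lims2, and no source used here says how strand was treated in counting, so reads of the 2 genes may be shared.

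Bcas1 (chr2:170346991-170427845, minus strand), a myelin-associated protein used to mark oligodendrocytes that have just begun to myelinate, had a lower mean in both knockouts. Its signal was 61.84, 42.83, 39.32 and 64.67 in Prkci cKO, 45.52, 45.64 and 40.64 in Prkcz cKO, and 130.91, 106.69, 74.89 and 91.99 in Control. The groups did not overlap, but the controls varied widely, with a coefficient of variation of 23.5%, and the lowest control was a Pkcz f/f animal. The means were 51.6% of control in Prkci cKO and 43.4% in Prkcz cKO, log2 differences of -0.95 (SE 0.171) and -1.17 (SE 0.184). Exons of Bcas1 overlap those of Bcas1os1 and Bcas1os2, which have no row in the expression table, so its signal may include their reads.

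Enpp6 (chr8:46986887-47096762, plus strand), a choline-specific glycerophosphodiesterase of newly formed oligodendrocytes, had 9.52, 9.11, 6.35 and 13.06 in Prkci cKO, 12.84, 10.46 and 12.94 in Prkcz cKO, and 20.17, 16.25, 16.21 and 16.86 in Control. Every knockout library was below every control, and the 2 knockouts overlapped each other. The means were 54.7% of control in Prkci cKO and 69.5% in Prkcz cKO, log2 differences of -0.87 (SE 0.160) and -0.51 (SE 0.172).

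The long noncoding RNA 9630013A20Rik (chr14:84458639-84476424, minus strand, annotated as antisense) had the lowest signal of the 9 before any adjustment for length. Its signal was 2.45, 2.35, 1.73 and 3.02 in Prkci cKO, 2.27, 2.52 and 2.57 in Prkcz cKO, and 5.56, 4.84, 3.73 and 4.19 in Control. The knockouts did not overlap the controls, although each value rested on only about 38 to 130 reads. The means were 52.1% of control in Prkci cKO and 53.6% in Prkcz cKO, log2 differences of -0.82 (SE 0.149) in Prkci cKO and -0.77 (SE 0.161) in Prkcz cKO.

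**Figure D1:**
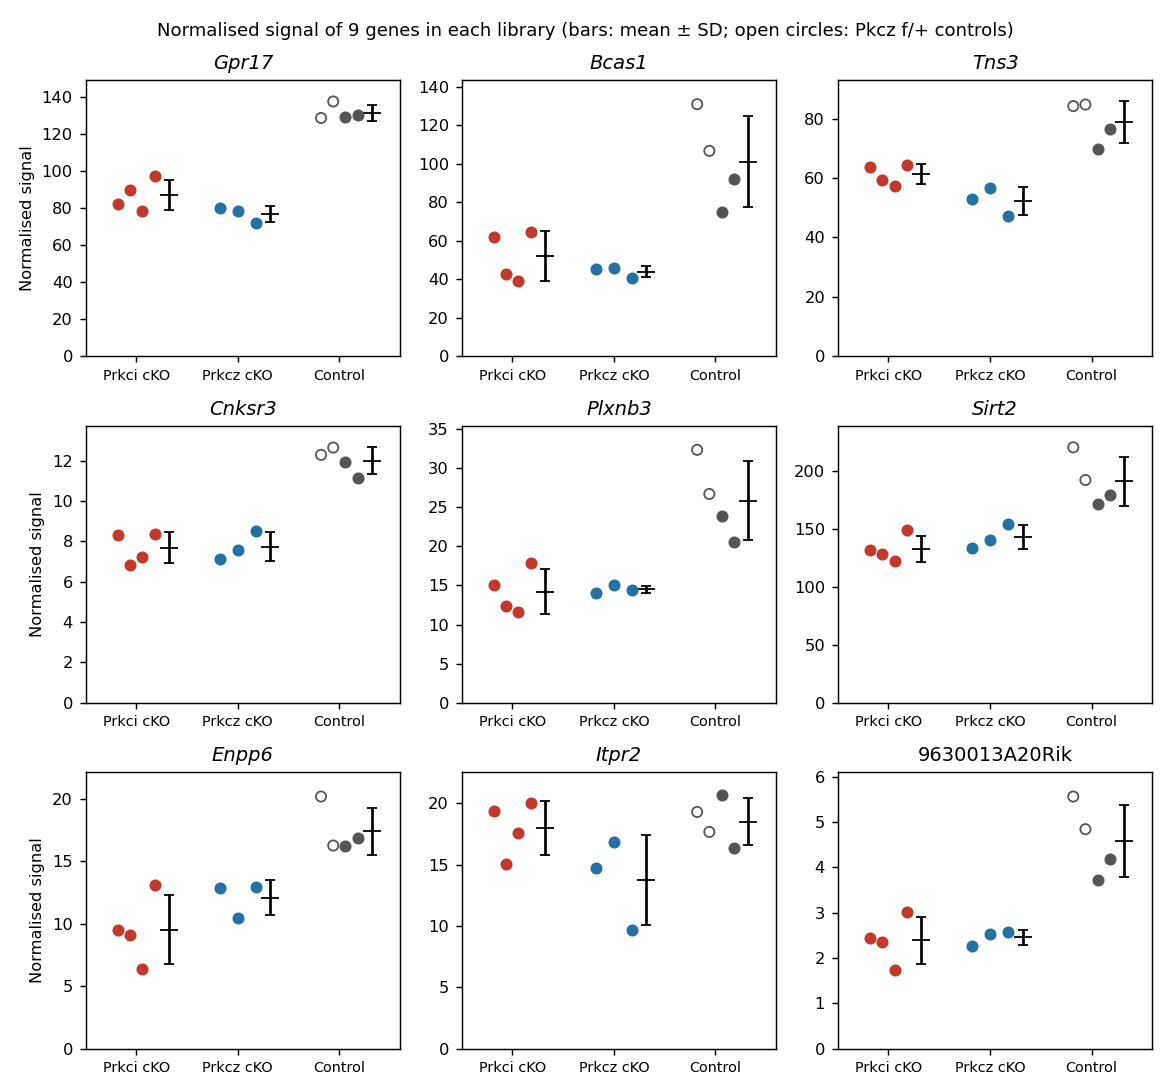
Normalised signal (y axis) of each of the 9 genes in every library, with Prkci cKO (4), Prkcz cKO (3) and Control (4) along the x axis; bars are the mean ± SD and open circles are Pkcz f/+ controls. For 8 genes all knockout libraries lie below all controls, whereas the Itpr2 values overlap between groups.

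Plxnb3 and Tns3 encode proteins at the cell surface and its contacts. Plexin B3 (chrX:73757090-73772514, plus strand), a receptor for semaphorins, had 15.06, 12.31, 11.58 and 17.89 in Prkci cKO, 14.09, 15.01 and 14.43 in Prkcz cKO, and 32.38, 26.73, 23.9 and 20.54 in Control. Both knockouts lay below the controls and stood at about the same level, 54.9% of the control mean in Prkci cKO and 56.1% in Prkcz cKO (log2 differences of -0.84, SE 0.139, and -0.80, SE 0.150). Tensin 3 (Tns3, chr11:8431652-8664535, minus strand), an adaptor that links integrins to actin, had 63.8, 59.36, 57.38 and 64.42 in Prkci cKO, 53.02, 56.54 and 47.28 in Prkcz cKO, and 84.18, 84.71, 69.85 and 76.39 in Control. Tns3 was the gene of the 9 in which the 2 knockouts did not overlap each other: all 4 Prkci cKO libraries lay between the Prkcz cKO libraries and the controls. Its means were 77.7% of control in Prkci cKO and 66.4% in Prkcz cKO, log2 differences of -0.36 (SE 0.072) and -0.59 (SE 0.078).

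Cnksr3 and Sirt2 encode intracellular proteins. Cnksr3 (chr10:7119063-7212237, minus strand), a scaffold protein studied mainly in kidney epithelium, had 8.32, 6.84, 7.24 and 8.34 in Prkci cKO, 7.13, 7.55 and 8.53 in Prkcz cKO, and 12.29, 12.65, 11.95 and 11.13 in Control. Its controls were nearly as tight as those of Gpr17, with a coefficient of variation of 5.41%, and the means were 64.0% of control in Prkci cKO and 64.4% in Prkcz cKO (log2 differences of -0.61, SE 0.087, in Prkci cKO and -0.60, SE 0.094, in Prkcz cKO). Sirt2 (chr7:28766735-28788661, plus strand), an NAD-dependent deacetylase of tubulin that is abundant in oligodendrocytes, had 131.88, 128.55, 122.43 and 149.1 in Prkci cKO, 134.02, 140.8 and 154.7 in Prkcz cKO, and 220.65, 192.42, 171.85 and 179.66 in Control. No knockout library reached the lowest control, and the means were 69.6% of control in Prkci cKO and 74.9% in Prkcz cKO (log2 differences of -0.52, SE 0.079, and -0.41, SE 0.085). Sirt2 exons overlap those of Nfkbib, which differed by -0.01 in Prkci cKO (limma adjusted p = 0.984) and by 0.11 in Prkcz cKO (adjusted p = 0.386).

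Itpr2 (chr6:146108299-146502223, minus strand), the type 2 inositol trisphosphate receptor that releases calcium from the endoplasmic reticulum, did not share the pattern. Its signal was 19.34, 15.02, 17.61 and 20.02 in Prkci cKO, 14.74, 16.86 and 9.69 in Prkcz cKO, and 19.3, 17.67, 20.71 and 16.35 in Control. The Prkci cKO libraries overlapped the controls and averaged 97.2% of the control mean (log2 difference -0.04, SE 0.142). The Prkcz cKO mean was 74.4% of control (log2 difference -0.44, SE 0.154), and without Prkcz cKO replicate 3, the shallowest library, the difference was -0.22. Summed markers of astrocytes, which also express Itpr2, ranged from 5350 to 6040 in Prkci cKO, from 3900 to 5130 in Prkcz cKO and from 5280 to 5850 in Control; their part in the Itpr2 values was not tested.

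Per kilobase of merged exon, control levels ran in the order Sirt2 (38.0), Bcas1 (26.8), Gpr17 (25.3), Tns3 (7.05), Plxnb3 (3.99), Cnksr3 (3.13), Enpp6 (2.71), 9630013A20Rik (1.63) and Itpr2 (1.25). Neighbours whose control libraries overlapped were Sirt2 and Bcas1, Bcas1 and Gpr17, Plxnb3 and Cnksr3, Cnksr3 and Enpp6, and 9630013A20Rik and Itpr2. In both knockouts the mean of Gpr17 stood above that of Bcas1 per kilobase (16.7 and 13.8 in Prkci cKO, 14.8 and 11.6 in Prkcz cKO), and that of Itpr2 above 9630013A20Rik (1.22 and 0.852 in Prkci cKO, 0.93 and 0.875 in Prkcz cKO). Libraries of Gpr17 and Bcas1 overlapped in Prkci cKO. Those of Itpr2 and 9630013A20Rik overlapped in both knockouts, and their order was reversed in Prkcz cKO replicate 3. Summed over the 9 genes, the signal ranged from 342 to 438 in Prkci cKO, from 363 to 374 in Prkcz cKO and from 522 to 654 in Control. In tissue RNA of this kind, fewer cells of a type and less of an RNA per cell cannot be told apart.

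Every Prkci cKO library was below every control for 8 of the 9 genes, where 5.32% of the 14330 genes that passed the filter (a signal of at least 1 in at least 3 libraries) did so, and every Prkcz cKO library was below every control for 8 of the 9, against 6.72% of all genes. The 2 comparisons share their controls. By limma with Benjamini-Hochberg adjustment over all 14330 genes, 8 of the 9 were called lower in Prkci cKO, where 1.51% of genes were called lower and 1.61% in either direction. In Prkcz cKO 7 of the 9 were called lower (not Enpp6 or Itpr2), with 0.621% of genes lower and 0.649% in either direction. Since the genes were selected on these same values, the counts of calls and of groups that do not overlap are given as description beside the shares of all genes, and nothing is read from them. The median log2 difference of the 9 was -0.61 in Prkci cKO and -0.60 in Prkcz cKO, against all-gene medians of 0 and -0.01. The count of 8 in Prkci cKO became 5 without Prkci cKO replicate 2 and 3 against the Pkcz f/f controls alone. The count of 7 in Prkcz cKO became 4 without Control replicate 1, Control replicate 2, Prkci cKO replicate 1, Prkci cKO replicate 2 or Prkcz cKO replicate 1. It became 2 without Prkcz cKO replicate 2, 3 without Prkcz cKO replicate 3, 2 when only Pkcz f/f animals served as controls, 4 with a replicate block and 3 when no variance trend was fitted. It became 5 with median-of-ratios scaling, with no filter, with only the 2 groups compared or without Control replicate 4. With a pseudocount of 0.1 or without Control replicate 3 it became 6.

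**Figure D2:**
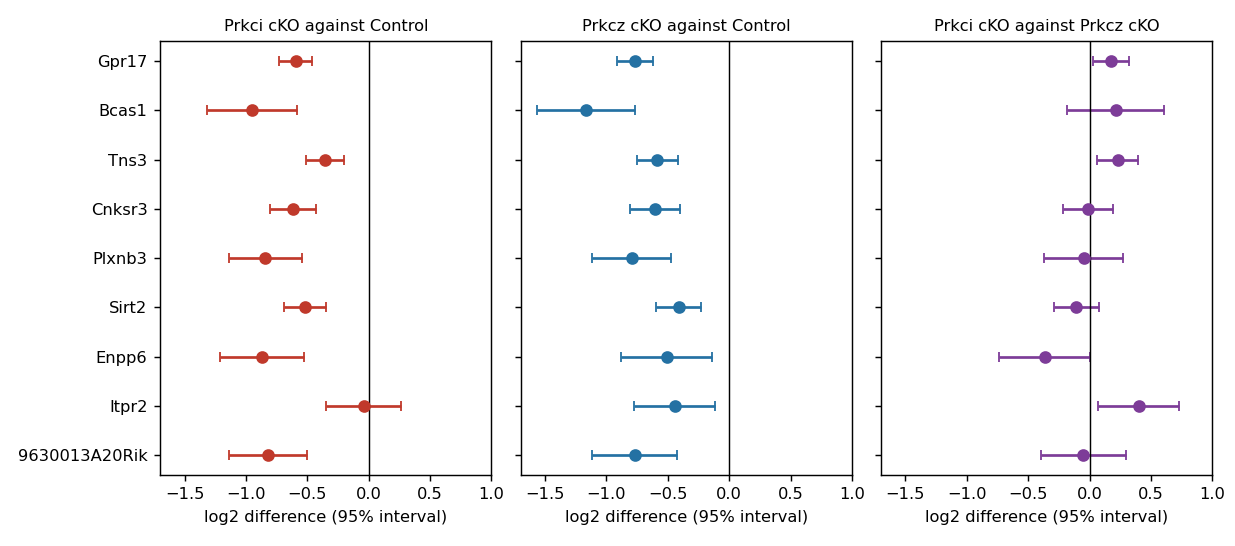
Fitted log2 difference (x axis, log2 of signal + 0.5) of each of the 9 genes with its 95% interval, for Prkci cKO against Control, Prkcz cKO against Control and Prkci cKO against Prkcz cKO. In Prkci cKO against Control the values run from -0.95 for Bcas1 to -0.04 for Itpr2, whereas between the knockouts they lie between -0.37 for Enpp6 and 0.40 for Itpr2.

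The comparison of the 2 knockouts with each other was not itself used to choose the genes, but it is the difference of the 2 known comparisons. Choosing genes with both known limits what this contrast can show, and its p values are no independent test. None of the 9 was called in Prkci cKO against Prkcz cKO by limma at an adjusted p under 0.05 (0 of 9), where 0.300% of all genes were called. An unadjusted p under 0.05 was found for 3 of the 9 (Tns3, Itpr2 and Gpr17) and for 2290 of all 14330 genes. Tns3 was 0.23 higher in Prkci cKO on the log2 scale (95% interval 0.06 to 0.40, adjusted p = 0.215), with all 4 Prkci cKO libraries above all 3 Prkcz cKO libraries. Across all genes, 13.8% had knockouts that did not overlap, against 1 of the 9 here. Gpr17 was 0.17 higher in Prkci cKO (95% interval 0.03 to 0.32, adjusted p = 0.252), with 1 of the 4 Prkci cKO libraries inside the range of the Prkcz cKO libraries. Itpr2 was 0.40 higher (95% interval 0.07 to 0.73, adjusted p = 0.248), a difference that shrank to 0.18 without Prkcz cKO replicate 3. Enpp6 was 0.37 lower on the same scale (log2 difference -0.37, 95% interval -0.74 to 0.005, adjusted p = 0.319).

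The intervals of the remaining 5 genes all held 0. Cnksr3 differed by -0.01 (95% interval -0.21 to 0.19, adjusted p = 0.968), Plxnb3 by -0.05 (-0.37 to 0.27, adjusted p = 0.897) and Sirt2 by -0.11 (-0.29 to 0.08, adjusted p = 0.548). 9630013A20Rik differed by -0.05 (-0.39 to 0.30, adjusted p = 0.903) and Bcas1 by 0.21 (-0.18 to 0.61, adjusted p = 0.579). The width of these intervals does not show that the 2 deletions gave the same level: for Bcas1 a difference of 0.61 in log2 lay inside the interval, and for Cnksr3 one of 0.19.

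Within the controls, 2 genotypes could be compared. Bcas1 averaged 83.4 in Pkcz f/f and 119 in Pkcz f/+ controls, a log2 difference of -0.51 (95% interval -0.95 to -0.07, adjusted p = 0.356). Plxnb3 averaged 22.2 in Pkcz f/f and 29.6 in Pkcz f/+ (log2 difference -0.40, adjusted p = 0.367), Sirt2 176 in Pkcz f/f and 207 in Pkcz f/+ (-0.23, adjusted p = 0.364), and Tns3 73.1 in Pkcz f/f and 84.4 in Pkcz f/+ (-0.21, adjusted p = 0.365). 9630013A20Rik averaged 3.96 in Pkcz f/f and 5.2 in Pkcz f/+ (-0.35, adjusted p = 0.472). For these 5 genes and for Cnksr3 both Pkcz f/f animals were below both Pkcz f/+ animals. With 2 animals of each genotype, such a separation arises easily by chance. The unadjusted p was under 0.05 for 4 of them (Bcas1, Plxnb3, Sirt2 and Tns3), but 0 of the 9 were called after adjustment, where 0.154% of all genes were. The shares of all genes with such a separation or such an unadjusted p were not counted, so nothing is read from these counts. Gpr17 averaged 130 in Pkcz f/f and 133 in Pkcz f/+ (adjusted p = 0.897), and Cnksr3 11.5 in Pkcz f/f and 12.5 in Pkcz f/+ (adjusted p = 0.745). Enpp6 (adjusted p = 0.852) and Itpr2 (adjusted p = 0.994) had animals of both genotypes intermixed. Mature oligodendrocyte genes had a median difference of -0.34 and immediate early genes one of 0.6 (both Pkcz f/f minus Pkcz f/+), against 0 over all genes.

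As a description over 11 libraries with the group means removed (8 residual degrees of freedom), the 36 pairs had a median Pearson r of 0.54 and 33 pairs were above 0. The closest pairs were Sirt2 with 9630013A20Rik (0.90), Bcas1 with 9630013A20Rik (0.87), Bcas1 with Plxnb3 (0.86), Plxnb3 with 9630013A20Rik (0.86), Plxnb3 with Sirt2 (0.83) and Bcas1 with Tns3 (0.83). Gpr17 with Cnksr3 was at 0.00, and the 8 pairs with Itpr2 ran from -0.11 to 0.50. All 9 values of an animal come from 1 library, so they share its depth and its dissection. The control mean removed here pools both control genotypes, whose averages differed in several of these genes, although 0 of the 9 were called between them. With the control genotypes centred apart (7 residual degrees of freedom, an alternative chosen after seeing the data), the median r was 0.48, 32 pairs were above 0, and Sirt2 with 9630013A20Rik was at 0.85, Plxnb3 with Bcas1 at 0.78 and Bcas1 with Tns3 at 0.73.

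The same genes differed in how closely they followed the mature oligodendrocyte and myelin list, which holds 28 genes such as Mbp, Mog and Mag. Sirt2 was closest to its mean (Pearson r 0.93, Spearman coefficient 0.93, and r 0.87 without the 2 farthest libraries), followed by 9630013A20Rik (0.92, 0.96 and 0.84), Plxnb3 (0.89, 0.87 and 0.75), Bcas1 (0.87, 0.81 and 0.75), Enpp6 (0.80, 0.83 and 0.64) and Cnksr3 (0.74, 0.69 and 0.75). Tns3 (0.54, 0.51 and 0.38) and Gpr17 (0.35, 0.31 and 0.11) followed it less closely. Itpr2 did not follow it (-0.03, -0.02 and -0.31) and instead went with the mean of the 16 precursor genes (0.93, 0.84 and 0.80). Less closely, Itpr2 also went with the astrocyte list (0.64, 0.61 and 0.46) and with family relatives (0.60, 0.65 and 0.82). With the control genotypes centred apart, r with the mature list was 0.91 for Enpp6, 0.89 for Sirt2, 0.88 for 9630013A20Rik, 0.82 for Plxnb3, 0.79 for Bcas1, 0.72 for Cnksr3, 0.34 for Gpr17, 0.23 for Tns3 and -0.04 for Itpr2, and Itpr2 had 0.97 with the precursor list. The mean of the 9 genes had an r of 0.89 with the mature list, 0.79 with family relatives, 0.78 with regulators, 0.65 with partners, 0.45 with the other newly formed list (0.32 without the 2 farthest libraries), 0.43 with precursors, -0.12 with striatal genes and -0.33 with immediate early genes. Gpr17 alone of the 9 had an r beyond -0.5 with the striatal list (-0.66, Spearman coefficient -0.76, and -0.63 without the 2 farthest libraries), a list of genes high in the striatum below the cortex, whose sum ranged from 370 to 691 in Prkci cKO, from 758 to 1680 in Prkcz cKO and from 747 to 1250 in Control.

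**Figure D3:**
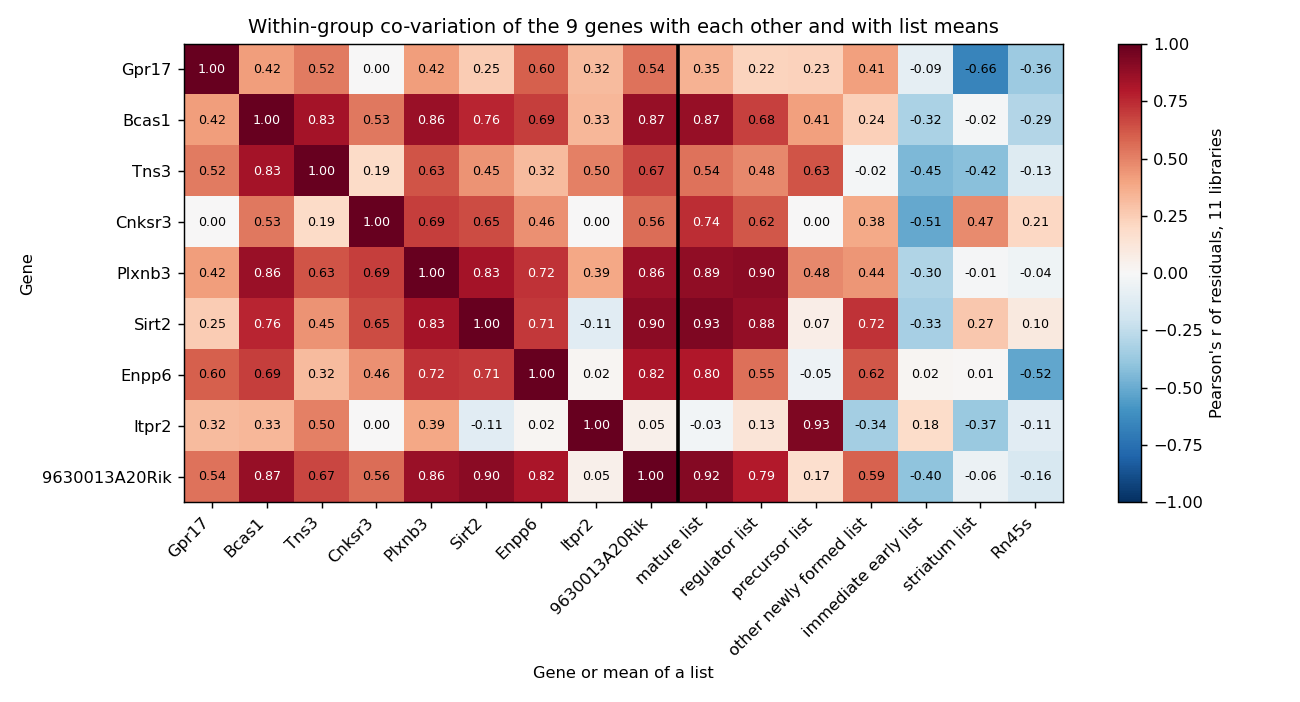
Pearson's r (colour and printed value) of residuals from the group means over 11 libraries, for each pair of the 9 genes (left of the line) and for each gene with the mean of other lists and with Rn45s (right of the line). Sirt2, 9630013A20Rik, Plxnb3 and Bcas1 have values of 0.87 or more with the mature list, whereas Itpr2 has 0.93 with the precursor list and -0.03 with the mature list.

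A rule named the 5 genes most like each of the 9 among 12125 genes, on the same residuals from 3 group means. Genes of the mature list were among the 5 for Bcas1, Sirt2 and 9630013A20Rik. The closest was Mbp for Bcas1 (r 0.98), Ptp4a3 for Plxnb3 (0.98, with Gm98, the table's symbol for Myrf, at 0.96), Tmem88b for Sirt2 (0.98, with Gpr37 at 0.97 and Adamts4 at 0.96) and Sema6c for 9630013A20Rik (0.97, with Mobp at 0.96). Enpp6 was closest to the precursor gene Vcan (0.96). Cnksr3 was closest to Cd9 (0.93), Gpr17 to Afap1 (0.92), Tns3 to Setd1a (0.97) and Itpr2 to Zfp809 (0.96). With this many genes and 11 libraries, a high maximum is to be found for most genes.

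**Figure D4:**
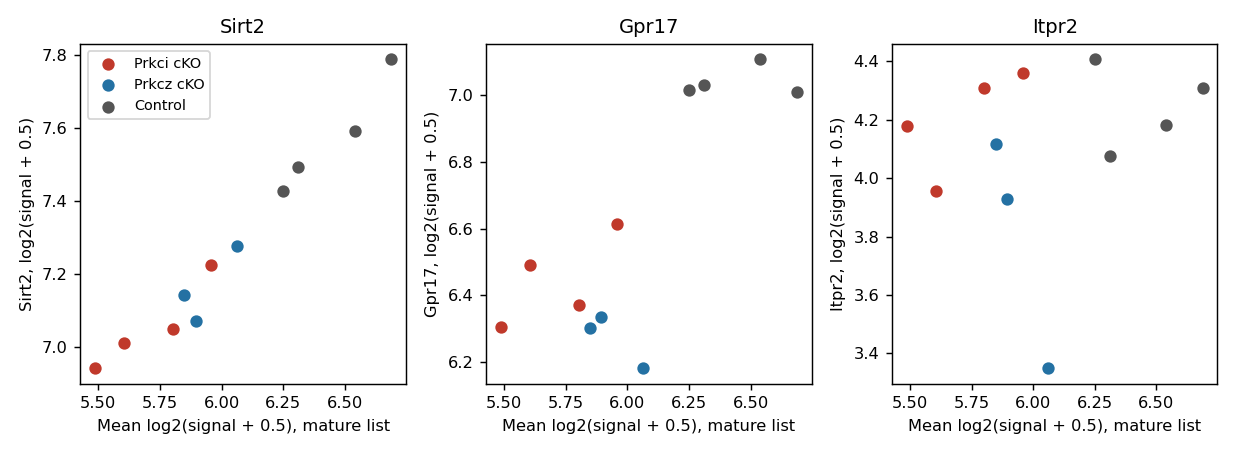
Level of Sirt2, Gpr17 and Itpr2 (y axes, log2 of signal + 0.5) against the mean level of the 28 mature oligodendrocyte genes (x axes, same scale) in the 11 libraries, coloured by group. Sirt2 goes with the list inside and across groups (within-group r 0.93), Gpr17 forms separate levels for knockouts and controls (within-group r 0.35) and Itpr2 does not follow the list (-0.03).

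Of 24 further genes of committed precursors and newly formed oligodendrocytes, 23 passed the filter. In Prkci cKO 9 of the 23 were called lower and 0 higher (limma, adjusted p under 0.05), where 1.51% of all genes were called lower, and the other 14 did not pass. The median log2 difference of the 23 was -0.30, against 0 over all genes. These genes and the lists that follow were also chosen with earlier results of these data known, so their counts are not independent support for the pattern of the 9. Zfp488, a zinc finger factor of oligodendrocyte differentiation, averaged 4.62 ± 0.738 in Prkci cKO and 8.57 ± 0.552 in Control (log2 difference -0.83, adjusted p = 0.00226). Dock10, an exchange factor for small GTPases, averaged 31.0 ± 3.57 in Prkci cKO and 46.9 ± 5.41 in Control (-0.59, adjusted p = 0.00332). Lims2 (-0.58, adjusted p = 0.0169), which overlaps Gpr17, and the homeodomain factor Nkx2-2 (-0.67, adjusted p = 0.0200) were also called. Leaving out 1 control at a time brought the 9 calls to 3 (Control replicate 1), 5 (Control replicate 2), 5 (Control replicate 3) and 4 (Control replicate 4). Leaving out 1 knockout brought them to 2 (Prkci cKO replicate 1), 2 (Prkci cKO replicate 2), 4 (Prkci cKO replicate 3) and 5 (Prkcz cKO replicate 2).

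In Prkcz cKO the same 23 genes had 2 called lower and 0 higher, where 0.621% of all genes were called lower, and a median of -0.18. Dock10 averaged 31.6 ± 1.43 in Prkcz cKO and 46.9 ± 5.41 in Control (-0.56, adjusted p = 0.0215), and Frmd4a, a scaffold protein of cell polarity, averaged 50.7 ± 5.25 in Prkcz cKO and 65.8 ± 1.5 in Control (-0.38, adjusted p = 0.0215). Zfp488 (-0.57, adjusted p = 0.0596) and Nkx2-2 (-0.60, adjusted p = 0.0789) did not pass. The 2 calls became 1 when Control replicate 1 or Prkcz cKO replicate 2 was left out, and 0 when Prkcz cKO replicate 3 was. Between the knockouts 0 of the 23 were called, with 6 at an unadjusted p under 0.05 (2290 of all 14330 genes) and a median of -0.06.

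The stages on either side of the 9 genes were counted in the same way, with no test between lists. Of 16 precursor genes, among them Pdgfra and Cspg4, 0 were called in either knockout (limma), with medians of 0.01 in Prkci cKO and -0.15 in Prkcz cKO. An unadjusted p under 0.05 was reached by 6 in Prkci cKO (1730 of all 14330 genes) and 4 in Prkcz cKO (2144 of 14330). The difference was below 0 for 7 of the 16 in Prkci cKO and for 13 of the 16 in Prkcz cKO. In Prkci cKO C1ql1 differed by -0.36 (limma adjusted p = 0.0857), Cacng4 by -0.41 (0.247) and Lhfpl3 by -0.20 (0.322). Cspg4, which encodes NG2 itself, averaged 22.8 ± 1.60 in Prkci cKO, 21.5 ± 2.93 in Prkcz cKO and 17.4 ± 2.25 in Control. Its limma adjusted p against Control was 0.0764 for Prkci cKO and 0.224 for Prkcz cKO. Only the knockouts have Ng2-driven Cre in their labels, and its part in the Cspg4 values was not tested. Of 28 mature oligodendrocyte genes, 22 were called lower in Prkci cKO, with a median of -0.83, and 7 in Prkcz cKO, with a median of -0.57. Over all genes, 1.51% were called lower in Prkci cKO and 0.621% in Prkcz cKO. Ermn, an actin-binding protein of myelin, averaged 39.2 ± 7.32 in Prkci cKO, 47.4 ± 3.56 in Prkcz cKO and 79.4 ± 10.8 in Control (log2 differences of -1.02, adjusted p = 9.84e-04, and -0.73, adjusted p = 0.0265). The 22 became 11 against Pkcz f/f controls alone. The 7 became 1 (Control replicate 1 left out), 2 (Control replicate 2), 4 (Prkci cKO replicate 1), 4 (Prkci cKO replicate 2), 2 (Prkcz cKO replicate 1), 0 (Prkcz cKO replicate 2) and 0 (Prkcz cKO replicate 3). Between the knockouts 0 of the 28 were called, with 7 at an unadjusted p under 0.05 (2290 of all 14330 genes) and a median of -0.23.

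Of 15 transcriptional regulators of oligodendrocyte differentiation, 7 were called lower in Prkci cKO, with a median of -0.13. The share of all genes called lower was 1.51% in Prkci cKO and 0.621% in Prkcz cKO. Sox10, a factor needed for myelin gene expression, averaged 33.0 ± 2.95 in Prkci cKO and 53.8 ± 8.25 in Control (log2 difference -0.69, adjusted p = 0.00226). Myrf, listed as Gm98, averaged 35.1 ± 5.84 in Prkci cKO and 63.0 ± 12.2 in Control (-0.83, adjusted p = 0.00341), and Nkx6-2 (-1.01) and Olig1 (-0.54) were also called. In Prkcz cKO 2 of the 15, Olig1 (adjusted p = 0.0329) and Sox10 (-0.55, adjusted p = 0.0334), were called lower, with a median of -0.14, and Gm98 was at -0.64 (adjusted p = 0.0510). That count of 2 became 0 without Control replicate 1, Control replicate 2, Prkcz cKO replicate 2 or Prkcz cKO replicate 3. It became 1 without Control replicate 3, Prkci cKO replicate 1, Prkci cKO replicate 2 or Prkcz cKO replicate 1, and 5 without Prkci cKO replicate 4.

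Family relatives of the 9 genes showed few differences. Of 19 relatives that passed the filter, 1 was called lower in Prkci cKO, with a list median of -0.03, and 0 in Prkcz cKO (limma). Over all genes, 1.51% were called lower in Prkci cKO and 0.621% in Prkcz cKO. In Prkcz cKO the median was -0.07, and 6 had an unadjusted p under 0.05, as did 2144 of all 14330 genes. The 1 called in Prkci cKO was Enpp4, a relative of Enpp6, with 31.3 ± 2.79 in Prkci cKO and 38.5 ± 1.5 in Control (log2 difference -0.30, adjusted p = 0.0299). Its call was lost without Control replicate 1, 2 or 4 and without Prkci cKO replicate 1 or 2. Beside Sirt2, the other 6 sirtuins had log2 differences between -0.15 (Sirt1) and 0.125 (Sirt3) in Prkci cKO and between -0.12 (Sirt4) and 0.29 (Sirt5, adjusted p = 0.155) in Prkcz cKO, where all 3 Sirt5 values were above every control. Sirt3 averaged 42.5 ± 2.79 in Prkci cKO, 39.8 ± 1.35 in Prkcz cKO and 39.2 ± 5.18 in Control. Beside Plxnb3, Plxnb1 averaged 95.8 ± 8.12 in Prkci cKO, 83.9 ± 9.49 in Prkcz cKO and 97.5 ± 4.35 in Control, and Plxnb2 67.8 ± 5.51 in Prkci cKO, 58.9 ± 5.72 in Prkcz cKO and 62.4 ± 2.72 in Control.

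Apart from Enpp4, the calcium channel relatives, the other phosphodiesterases and the other scaffolds were likewise not called. Itpr1, the neuronal inositol trisphosphate receptor, averaged 712 ± 54.2 in Prkci cKO, 644 ± 76.4 in Prkcz cKO and 739 ± 25.5 in Control, and Itpr3 3.79 ± 0.391 in Prkci cKO, 2.88 ± 0.327 in Prkcz cKO and 2.87 ± 0.664 in Control. Enpp2 (autotaxin) averaged 574 ± 95.1 in Prkci cKO, 678 ± 85.8 in Prkcz cKO and 630 ± 215 in Control; summed markers of the choroid plexus, which also expresses Enpp2, ranged from 430 to 687 in Prkci cKO, from 596 to 973 in Prkcz cKO and from 92.6 to 955 in Control, and their part in it was not tested. Enpp5 averaged 236 ± 6.15 in Prkci cKO, 259 ± 16.5 in Prkcz cKO and 246 ± 5.01 in Control. For Enpp2 and Enpp5 the libraries of each knockout overlapped the controls. All 3 Prkcz cKO libraries were below every control for Tns1, Plxnb1, Enpp1 and Enpp4, as for 6.72% of all genes. All 4 Prkci cKO libraries were below every control for P2ry1 and Enpp4, as for 5.32% of all genes. For Itpr3 all 4 Prkci cKO libraries were above every control. The share of all genes above every control was not counted. Among these, only Enpp4 in Prkci cKO was called. Enpp1 averaged 3.83 ± 0.669 in Prkci cKO, 2.79 ± 0.189 in Prkcz cKO and 3.88 ± 0.505 in Control (adjusted p = 0.973 and 0.200 against Control). Tns1 averaged 45.5 ± 3.61 in Prkci cKO, 38.6 ± 3.54 in Prkcz cKO and 46.9 ± 3.41 in Control, Tns2 (listed as Tenc1) 10.7 ± 1.32 in Prkci cKO, 10.2 ± 1.41 in Prkcz cKO and 11.5 ± 1.37 in Control, and Cnksr2 290 ± 21.2 in Prkci cKO, 257 ± 28.2 in Prkcz cKO and 261 ± 10.3 in Control. Of the receptors related to Gpr17, P2ry12 of microglia averaged 46.3 ± 2.69 in Prkci cKO, 40.6 ± 2.53 in Prkcz cKO and 42.4 ± 1.45 in Control, and P2ry1 averaged 1.91 ± 0.208 in Prkci cKO, 2.45 ± 0.406 in Prkcz cKO and 2.98 ± 0.441 in Control (adjusted p = 0.0714 for Prkci cKO against Control).

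Of 20 ligands, adaptors and pathway genes that act beside the 9, 3 were called lower in Prkci cKO and 2 in Prkcz cKO, with medians of -0.01 and -0.08. The share of all genes called lower was 1.51% in Prkci cKO and 0.621% in Prkcz cKO. Sema4d, a semaphorin made by oligodendrocytes that binds plexins of the B family, averaged 66.3 ± 2.52 in Prkci cKO, 65.6 ± 2.11 in Prkcz cKO and 84.1 ± 4.18 in Control (log2 differences of -0.34, adjusted p = 0.00226, and -0.35, adjusted p = 0.0126). Sema5a, a ligand of plexin B3, averaged 61.1 ± 4.09 in Prkci cKO, 59.6 ± 9.07 in Prkcz cKO and 75.6 ± 3.32 in Control (adjusted p = 0.0805 and 0.0853). Rhog, a small GTPase, differed by -0.65 (adjusted p = 0.0174) and the integrin gene Itgb4 by -0.71 (adjusted p = 0.0388) in Prkci cKO. Itgb1, which encodes an integrin subunit bound by tensins, differed by -0.26 (adjusted p = 0.0379) in Prkcz cKO. The 3 calls in Prkci cKO became 1 without Control replicate 2, Prkci cKO replicate 2 or Prkci cKO replicate 3. The 2 calls in Prkcz cKO became 1 when any of the 4 controls, Prkci cKO replicate 1, Prkci cKO replicate 2 or Prkcz cKO replicate 3 was left out, and 0 when Prkcz cKO replicate 2 was.

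**Figure D5:**
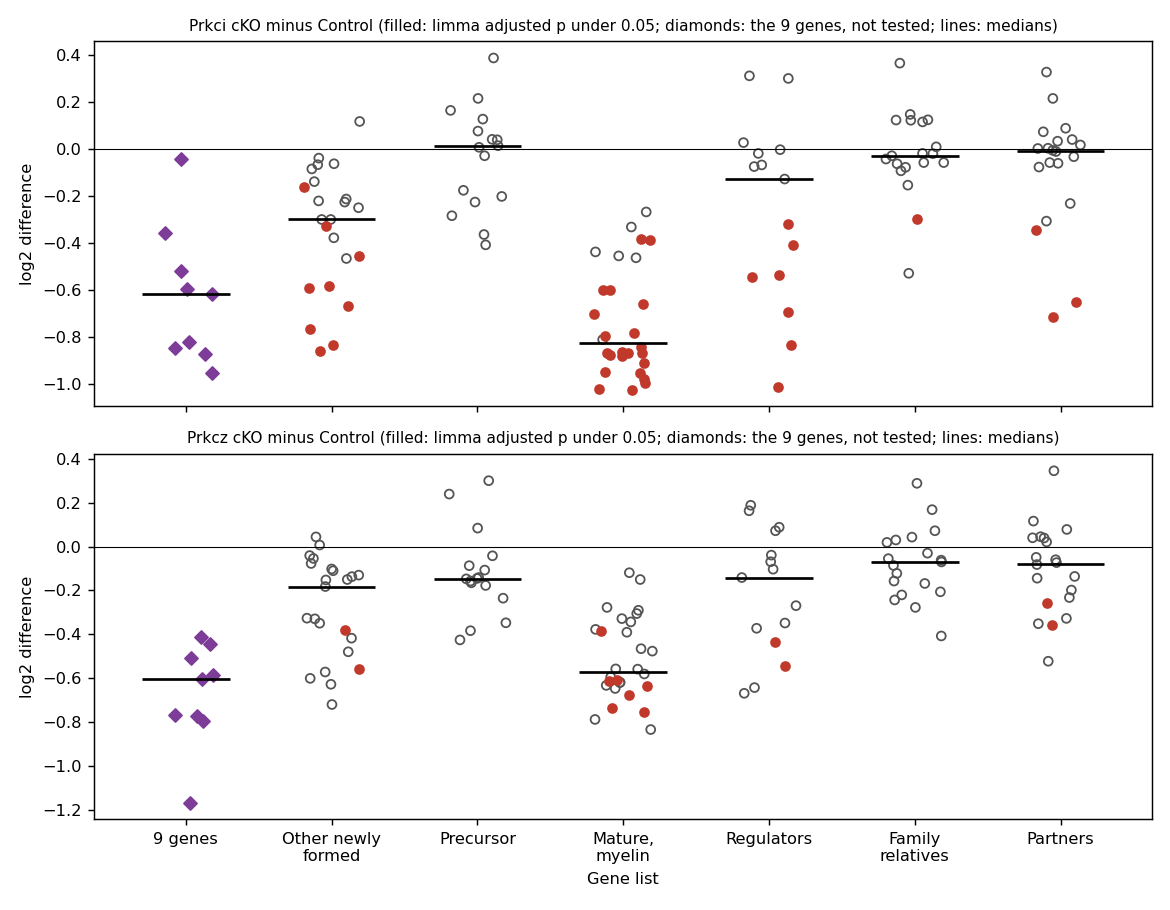
Log2 difference (y axis, log2 of signal + 0.5) of every tested gene in each list (x axis) for Prkci cKO minus Control and for Prkcz cKO minus Control; filled points have a limma adjusted p under 0.05, diamonds are the 9 genes and black lines are medians. The 9 genes and the mature list have medians of -0.61 and -0.83 in Prkci cKO and -0.60 and -0.57 in Prkcz cKO. Medians of the other newly formed genes and the regulators are -0.30 and -0.13 in Prkci cKO and -0.18 and -0.14 in Prkcz cKO. Precursor genes, family relatives and partners have medians between -0.15 and 0.01.

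Markers of other kinds also differed between the groups. The 11 striatal genes had a median log2 difference of -0.89 in Prkci cKO, with 11 of 11 below 0, and of -0.04 in Prkcz cKO, with 8 of 11 below 0. By limma 0 were called in either. An unadjusted p under 0.05 was reached by 11 in Prkci cKO (1730 of all 14330 genes) and 0 in Prkcz cKO (2144 of 14330). Summed immediate early genes, which respond within minutes to activity and handling, ranged from 422 to 507 in Prkci cKO, from 312 to 487 in Prkcz cKO and from 560 to 1190 in Control. In each knockout 8 of the 12 were called lower, where 1.51% of all genes were in Prkci cKO and 0.621% in Prkcz cKO. Summed endothelial markers ranged from 167 to 181 in Prkci cKO, from 118 to 125 in Prkcz cKO and from 147 to 162 in Control. Mural cell markers, which include pericytes in which Ng2 is also active, ranged from 140 to 159 in Prkci cKO, from 114 to 126 in Prkcz cKO and from 141 to 158 in Control. The part of these differences in the values of the 9 genes was not tested.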

How the data were processed

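Bulk RNA-seq of mouse cortex was analysed from 1 deposited table of normalised signal with a column for each of the 11 libraries. Per the submitters' processing notes, the authors used FastQC, Trim Galore, STAR, RSEM and edgeR with GRCm38; the annotation, the strand setting and the scaling of the deposited signal are given in none of the sources used here. Columns sum to between 1021767 and 1082562, and 86.3% to 89.9% of values under 0.5 lie on whole steps (tolerance 0.005), which gave the estimate of depth. Depth limits the low values most. Values were taken as log2(signal + 0.5). Genes with at least 1 in at least 3 libraries (14330) were fitted in 1 model with a term per group in limma 3.58.1 (R 4.3.3; empirical Bayes with a variance trend, two-sided, Benjamini-Hochberg over all genes). A called gene has an adjusted p under 0.05. Controls split by genotype were compared in a second fit. The fit was tested on simulated data. Gene positions come from GENCODE M21, and promoters from RefSeq.

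The 9 genes and all lists were chosen with earlier results of these data known. All 9 genes are named in every comparison, and of each other list up to 4 genes with the smallest p; relatives are named with a mean of at least 1. The series describes the animals as biological replicates. Alternatives were another pseudocount, no filter, median-of-ratios scaling, no variance trend, only the groups compared, 1 control genotype at a time, leaving out each library and adding a replicate block.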

Additional observations from a re-analysis of the deposited data

Results flagged for a closer look

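Enpp6 in the Control group was picked out because its highest library, Control replicate 1 at 20.17, stood apart from the other 3, which lay between 16.21 and 16.86. Its gap to the nearest library took 0.836 of the group's range, above Dixon's 95% critical value for 4 libraries. Chance gives about 1 such result for every 20 groups tested. As 18 groups of 4 libraries were tested, 1 such result is about as many as chance gives.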

How the results depend on the processing

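The 8 genes other than Itpr2 had log2 differences below 0 in both comparisons with Control under every alternative run; Itpr2 ran from -0.10 to 0.04 in Prkci cKO and from -0.60 to -0.22 in Prkcz cKO. Against Pkcz f/f controls alone, Prkci cKO had 132 genes, 3 of the 9 and 2 other newly formed genes called, and Prkcz cKO had 59, 2 and 0. The other newly formed genes called lower in Prkci cKO were 4 without a variance trend and 4 against Pkcz f/+ controls. Prkcz cKO had 30, 3 and 0 called without a trend, and 28 genes and 1 other newly formed gene with only the groups compared.

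Leaving out 1 library at a time gave 94 to 350 genes, 5 to 8 of the 9 and 2 to 11 other newly formed genes in Prkci cKO, and 12 to 111 genes, 2 to 7 of the 9 and 0 to 3 others in Prkcz cKO. Between the knockouts it gave 10 to 151 genes; Cnksr3 ran from -0.064 to 0.058, Plxnb3 from -0.163 to 0.039 and 9630013A20Rik from -0.151 to 0.068 and changed sign, as did the median of the 9, from -0.064 to 0.068. Same-numbered libraries correlated between -0.186 and 0.196, not all over 0.1, so the numbers were not taken as pairs, although libraries were best with their own number in 12 of 20 cases; with a replicate block, 4 of the 9 were called in Prkcz cKO, and 73 genes between the knockouts. Low depth limits 9630013A20Rik most.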
